A study of Bos taurus with 6 samples.

Results

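The miR-30 family was examined in cultured bovine granulosa cells, the somatic cells that line the ovarian follicle and support the oocyte. Its members were taken by name: bta-miR-30a-5p, bta-miR-30b-5p, bta-miR-30b-3p, bta-miR-30c, bta-miR-30d, bta-miR-30e-5p and bta-miR-30f, which are 7 of the 1028 bovine miRNAs listed for each library. No other miR-30 name was listed. The cells came from follicles of 3 to 6 mm (small antral follicles) of slaughterhouse ovaries and were cultured for 24 h before treatment. Control cells were then kept at 37 °C and heat-stressed (HS) cells at 42 °C for 24 h, with 3 libraries in each group, numbered 1 to 3 in the labels. Every culture received exosome-depleted serum, and no strain, age or genotype is given. The labels call the samples biological replicates without saying whether they came from separate animals, so p-values measure the spread between these libraries.

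A miRNA is cut from a hairpin-shaped precursor, and its seed, the bases near the 5′ end, pairs with target mRNAs and lowers their translation and stability. The miR-30 miRNAs from the 5′ arm of their hairpins share a seed and differ from each other at few bases outside it, so their target sets overlap widely, whereas bta-miR-30b-3p comes from the opposite arm and does not belong to that seed group. The family is known in many tissues for holding back the epithelial-to-mesenchymal transition and for acting on autophagy through BECN1, a target of miR-30a. The seeds were not read here, so in the values below the family total means the 6 members other than bta-miR-30b-3p.

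In the RefSeq annotation of the bovine genome all 7 members matched a gene, and their 6 hairpin genes stand in 3 pairs of nearest miRNA neighbours. MIR30D, the source of bta-miR-30d, is next to MIR30B, which gives both bta-miR-30b-5p and bta-miR-30b-3p. MIR30A is next to MIR30F. MIR30E is next to MIR30C, and both overlap NFYC, which encodes a subunit of the CCAAT-binding factor NF-Y. MIR30A overlaps the protein-coding gene LOC132346186, while MIR30B, MIR30D and MIR30F overlap no other annotated gene.

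The libraries held 2076239 to 4590971 miRNA reads, as recovered from the deposited values, with control replicate 1 the smallest and HS replicate 3 the largest. In the mapping summary of the study, control replicate 1 also had the lowest percent of reads on annotated miRNAs among these libraries. The part of this in the miR-30 values was not tested. Values are normalised CPM (reads scaled to the size of each library with TMM, the trimmed mean of M-values), where 3 reads stand for 0.639 to 1.46 normalised CPM. An average of at least 10 normalised CPM was reached by 5 of 6 miRNAs often linked to granulosa cells and gonads, 5 of 7 of blood cells, 6 of 7 of theca, stroma and muscle and 2 of 6 of epithelium, so this count does not set the granulosa list apart, and no miRNA defines this cell type by itself. The 7 blood-cell miRNAs summed to 730.2 to 895.4 normalised CPM in control and 676.6 to 799.8 in HS cells. Over all libraries, bta-miR-451 lay between 0.557 and 2.65 and bta-miR-144 at or below 0.272. The others lay higher, with bta-miR-142-3p at 7.812 to 24.11, bta-miR-486 at 11.98 to 60.06 and bta-miR-150 at 44.97 to 260.7. The highest were bta-miR-223 at 195.8 to 311.0 and bta-miR-142-5p at 247.9 to 428.5. The 7 theca, stroma and muscle miRNAs summed to 1565 to 2137 in control and 2068 to 2387 in HS cells, and the 6 epithelial ones to 62.0 to 96.9 and 51.9 to 88.9. None of these 4 lists separated the groups in its summed level, and their part in the miR-30 values was not tested. In a bulk library, fewer cells of a type and less RNA per cell cannot be told apart.

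The family was expressed at clear but unequal levels, and the order of the members was nearly the same in all 6 libraries. bta-miR-30d led, with 9116 normalised CPM on average and rank 23 of all miRNAs listed. bta-miR-30a-5p followed at 4472 (rank 36), bta-miR-30e-5p at 2566 (rank 45) and bta-miR-30c at 1273 (rank 72). Each of these 4 lay above the next member in 6 of 6 libraries, and their ranges did not overlap. bta-miR-30f at 466.7 (rank 102) and bta-miR-30b-5p at 443.5 (rank 104) did not differ beyond their spread, since bta-miR-30f was the higher in only 3 of 6 libraries. bta-miR-30b-3p stood far below the rest at 6.87 (rank 296). By the detection minimum of 10 normalised CPM in 2 or more libraries of a group, 6 members were detected in both groups and bta-miR-30b-3p in neither. A read spans a whole mature miRNA, so levels were not divided by length, and the preference of the library kit for particular ends was not tested.

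**Figure D1:**
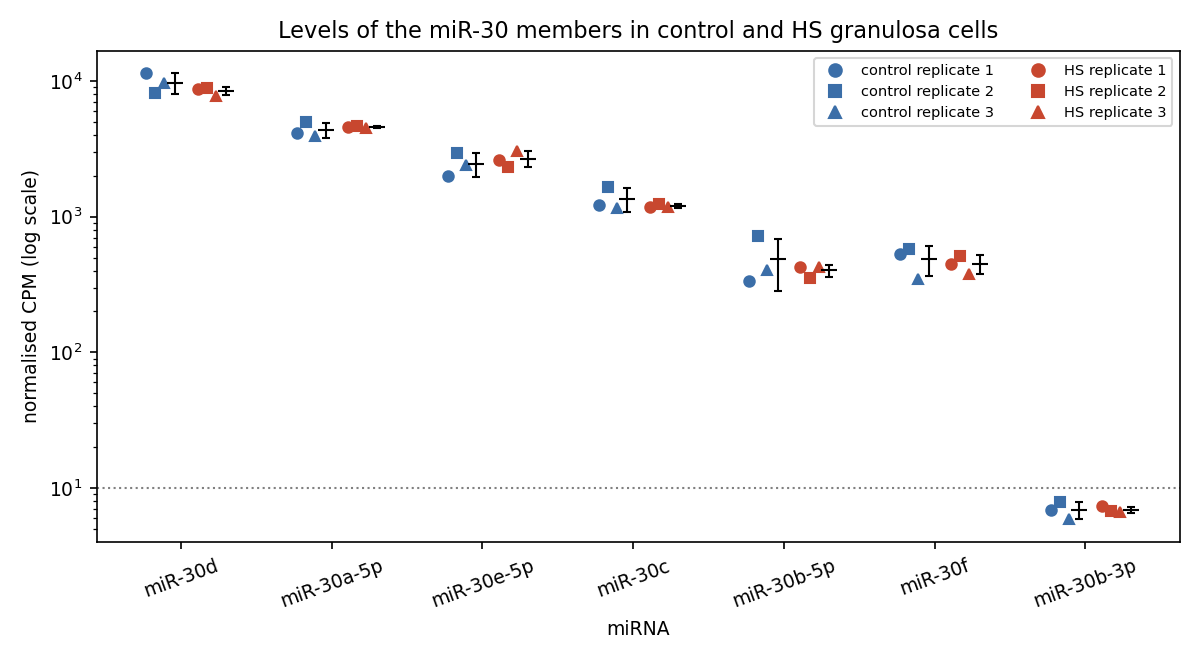
Normalised CPM (log scale) of the 7 miR-30 members in each of the 3 control (blue) and 3 HS (red) libraries, with marker shape for the replicate number, black bars for the mean ± SD of the group (n = 3) and a dotted line at the detection minimum of 10. The members spread from bta-miR-30d, between 7773 and 11473, to bta-miR-30b-3p, between 5.85 and 7.82, and the groups overlap for each of them.

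As a whole the family took a narrow share of the miRNA pool. The 6 members of the family total held 1.94%, 1.92% and 1.80% of the reads in control libraries 1 to 3, against 1.74%, 1.82% and 1.77% under HS. The group shares were 1.89% ± 0.0743 (control) and 1.78% ± 0.0385 (HS; mean ± SD over 3 libraries), -0.111 percentage points apart. Control replicates 1 and 2 lay above every HS library, but control replicate 3 lay below HS replicate 2, so the groups overlapped. In summed normalised CPM the largest of the 6 libraries was 1.14 times the smallest, a narrower range than that of any single member, for which this ratio was at least 1.27. As a total over members chosen by name, this share was described and not tested.

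To ask whether HS altered any member, the members were read from a limma fit across the 365 miRNAs that passed a filter on low reads, which all 7 members did. The study called a miRNA changed at an adjusted p at or below 0.2 together with a log2 fold change of 1 or more in either direction. None of the 7 members met this rule, which 3.01% of the tested miRNAs did. Those were 11 miRNAs, of which 4 were higher in HS cells (1.1%) and 7 lower (1.92%), 2 and 9 with upper quartile scaling, and 9 and 6 without control replicate 1. No member had an adjusted p at or below 0.2 at any fold change (7.12% of those tested) or an unadjusted p under 0.05 (14.5%) in limma. The edgeR quasi-likelihood test and the DESeq2 Wald test on the recovered reads likewise gave 0 members at each of these 3 thresholds. The control and HS libraries overlapped for each of the 7 members, whereas 20% of the tested miRNAs had groups that did not overlap. The members' limma adjusted p-values ran from 0.639 to 0.972. Their log2 fold changes (HS minus control) ran from -0.20 to 0.13 with a median of -0.089, beside -0.0015 over all miRNAs tested. All 7 were under 0.2 in size, as were 50.4% of those tested.

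The intervals show how large a change these libraries could have hidden. The 95% intervals of the fold change, HS relative to control, reached from 0.547 to 1.47 at their widest, so for all 7 members of this fit they left out both a doubling and a halving (fold changes of 2 and 0.5). For bta-miR-30b-5p they did not in every alternative. With upper quartile factors, and without any one of control replicates 1 and 3 and HS replicates 1 and 3, its lower bound on the log2 scale lay between -1.12 and -1.06, which includes a halving. The narrowest belonged to bta-miR-30a-5p, with 0.878 to 1.30, and the widest on the log2 scale to bta-miR-30b-5p, with 0.547 to 1.39. A p that misses the threshold does not show that the levels were equal.

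**Figure D2:**
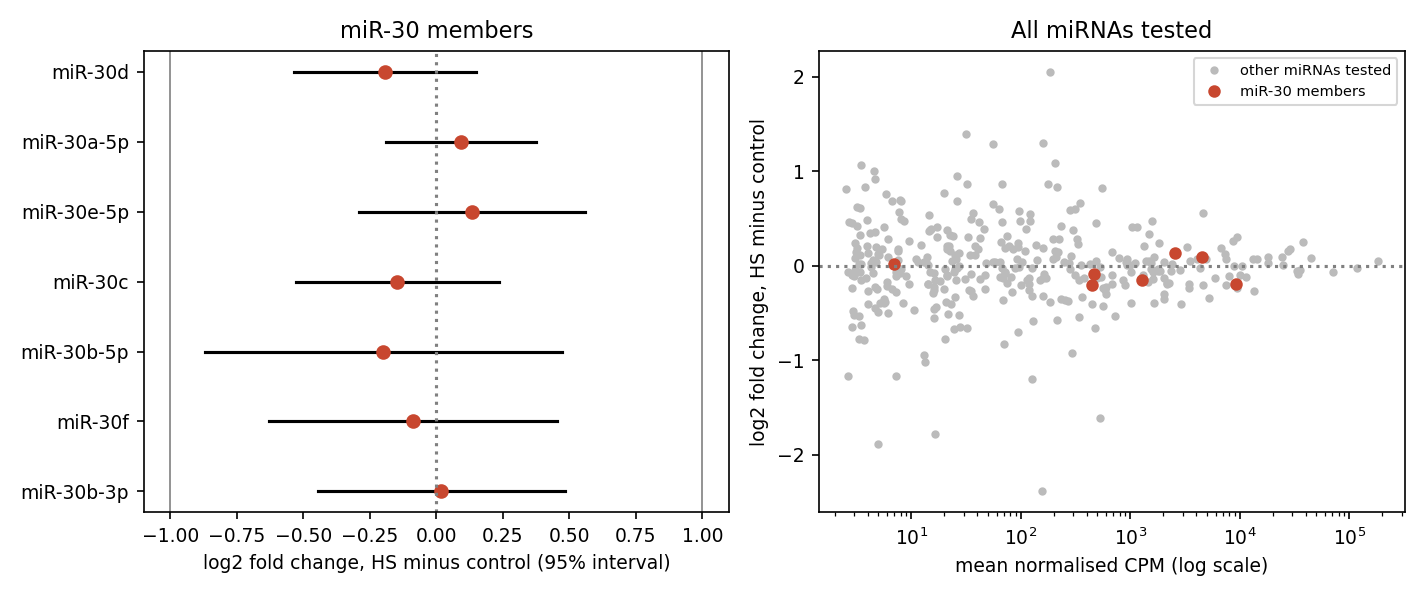
Left, log2 fold change (HS minus control) of each miR-30 member in limma as a point with its 95% interval as a line, with vertical lines at 0 and at a log2 fold change of 1 in either direction. Right, log2 fold change against mean normalised CPM (log scale) for the 365 miRNAs tested, with the members in red. The members lie between -0.20 and 0.13 and each interval crosses 0.

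bta-miR-30d, which in tumour cells is known together with miR-30b to act on the glycosyltransferase GALNT7, stood at 11473, 8115 and 9697 normalised CPM in the 3 control libraries (replicates 1 to 3). The HS libraries, in the same order, stood at 8761, 8880 and 7773. Control replicates 1 and 3 were above all HS libraries, while control replicate 2 was above only HS replicate 3. The means were 9762 ± 1680 for control and 8471 ± 608 for HS (SD over 3 libraries), and the log2 fold change was -0.19 ± 0.144 (SE; adjusted p = 0.639 in limma). Leaving out control replicate 1, the highest library, brought it to -0.069 (limma adjusted p = 0.845), and leaving out HS replicate 3 to -0.13. Without control replicate 2 it was -0.32 (limma adjusted p = 0.277, unadjusted p = 0.0383). With upper quartile factors, which moved the median of all miRNAs tested to -0.18, it was -0.38 (limma adjusted p = 0.281, unadjusted p = 0.0408). The direction was the same in each of the 19 alternatives, and bta-miR-30d was the only member for which an alternative gave an unadjusted p under 0.05.

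bta-miR-30b-5p, from the hairpin next to that of bta-miR-30d, stood at 334.4, 715.6 and 405.9 normalised CPM in control libraries 1 to 3, against 426.7, 356.0 and 422.3 under HS. Control replicate 2 was 161% of the mean over all libraries, and the other 5 libraries lay between 75.4% and 96.2% of it. The log2 fold change was -0.20 ± 0.283 (SE; limma, adjusted p = 0.844), without control replicate 2 it turned to 0.12 (limma adjusted p = 0.803), and without control replicate 1 it was -0.43 (limma adjusted p = 0.423). The value rested on 685 to 3294 reads per library. Counting error would give a coefficient of variation of 2.86% in control cells, and 41.7% was measured.

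From the other arm of the same hairpin, bta-miR-30b-3p was counted 14, 36 and 21 times in control libraries 1 to 3, against 22, 25 and 31 times under HS. These reads made 6.84, 7.82 and 5.85 normalised CPM for control, and 7.30, 6.80 and 6.60 for HS, with the HS libraries inside the control range. At this depth counting error alone gives a coefficient of variation of 22.1% in control cells, more than the 14.4% measured. Its log2 fold change was 0.018 ± 0.196 (SE; limma, adjusted p = 0.972). The sign was negative without control replicate 3 (-0.075), without HS replicate 1 (-0.018), with upper quartile factors and in edgeR.

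The 5′ arm of MIR30B was the major product in every library. There were 48.9, 91.5 and 69.4 reads of bta-miR-30b-5p for each read of bta-miR-30b-3p in control libraries 1 to 3, against 58.5, 52.4 and 64.0 under HS. On the log2 scale this ratio averaged 6.08 ± 0.453 for control and 5.86 ± 0.145 for HS (SD over 3 libraries). Their difference of -0.22 did not exceed the replicate spread (two-sided exact permutation test: p = 0.5, where 0.1 is the smallest p that 3 against 3 allows). Without control replicate 2, in which this ratio was highest, the difference was -0.0047, and without control replicate 1, in which it was lowest, it was -0.46.

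bta-miR-30a-5p, whose known targets include the autophagy gene BECN1, stood at 4130, 4962 and 3921 normalised CPM in control libraries 1 to 3. Under HS it stood at 4600, 4707 and 4511. The HS libraries lay close together and inside the control range, with a coefficient of variation of 2.12% against 12.7% in control cells. The log2 fold change was 0.094 ± 0.119 (SE; limma, adjusted p = 0.839). Without control replicate 3 it was 0.025, and without control replicate 2 it was 0.19 (limma adjusted p = 0.379). With upper quartile factors it was -0.092, which is above the median of -0.18 to which that scaling moved all miRNAs tested.

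bta-miR-30f, from the neighbouring hairpin, stood at 529.7, 575.9 and 348.0 normalised CPM in control libraries 1 to 3, against 450.9, 517.5 and 378.2 under HS. Replicate 2 was the highest and replicate 3 the lowest in both groups. Its log2 fold change was -0.089 ± 0.229 (SE; limma, adjusted p = 0.956). It was 0.052 without control replicate 2, 0.029 without HS replicate 3 and -0.31 without control replicate 3. bta-miR-30a-5p stood 7.80- to 11.9-fold above bta-miR-30f, and this ratio overlapped between the groups.

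bta-miR-30e-5p, a product of the NFYC locus, stood at 1989, 2955 and 2424 normalised CPM in control libraries 1 to 3, against 2641, 2328 and 3062 under HS. The highest value was in HS replicate 3 and the lowest in control replicate 1. The log2 fold change was 0.13 ± 0.18 (SE; limma, adjusted p = 0.839). It was -0.0087 without control replicate 1, 0.28 without control replicate 2 and, with upper quartile factors, -0.052, again above the shifted median.

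bta-miR-30c, from the other hairpin in NFYC and known as a regulator of the matrix protein CTGF, stood at 1228, 1656 and 1153 normalised CPM in control libraries 1 to 3. Under HS it stood at 1173, 1245 and 1183. Control replicate 2 was 130% of the mean over all libraries, and the other 5 lay between 90.6% and 97.8% of it. The log2 fold change was -0.15 ± 0.161 (SE; limma, adjusted p = 0.817), without control replicate 2 it was 0.011 (limma adjusted p = 0.979), and without control replicate 3 it was -0.25. The ratio of bta-miR-30e-5p to bta-miR-30c ran from 1.62 to 2.59 and overlapped between the groups.

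**Figure D3:**
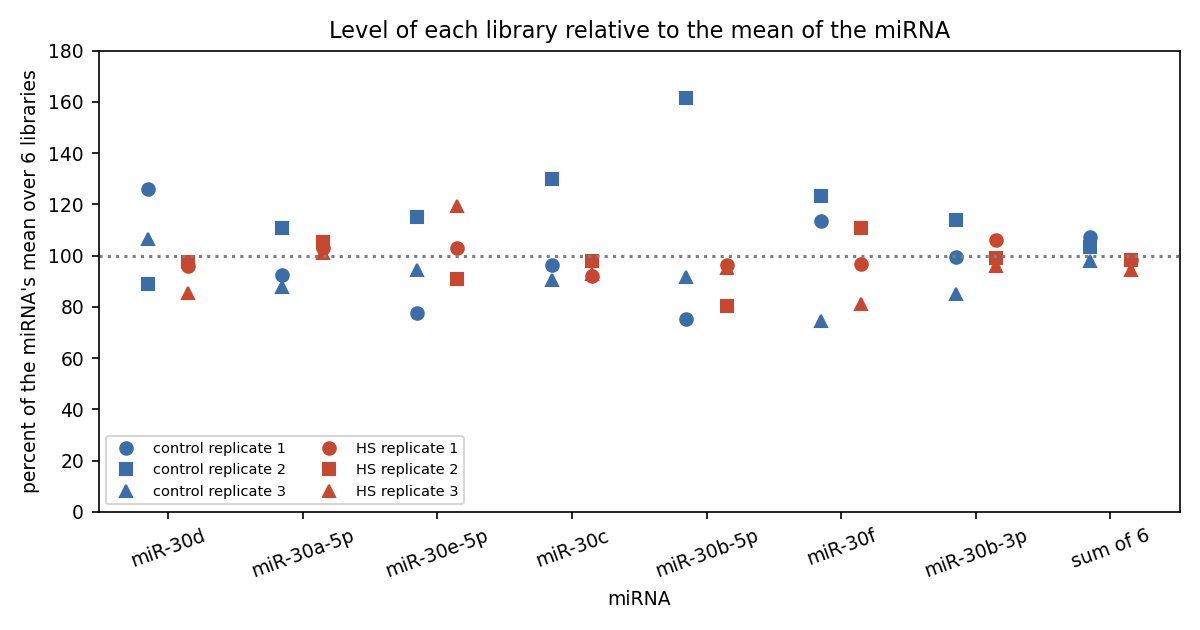
Level of each library as a percent of the mean of that miRNA over 6 libraries, for each miR-30 member and for the family total (sum of 6), with control libraries in blue, HS libraries in red and marker shape for the replicate number. Control replicate 2 stands at 161% for bta-miR-30b-5p and 130% for bta-miR-30c, while the family total stays between 94.5% and 107%.

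The members varied most among the control libraries. The SD of log2 values was larger in control than in HS cells for 7 of 7 members, as it was for 64.7% of all miRNAs tested. Over the members the median SD of log2 values was 0.279 for control and 0.106 for HS. Over all 365 miRNAs tested it was 0.278 for control and 0.196 for HS. Over the 161 of them with a mean of at least 100 normalised CPM, a cut that leaves out bta-miR-30b-3p, it was 0.237 and 0.153. Control replicate 2 was the highest of the 6 libraries for 5 of 7 members (bta-miR-30a-5p, bta-miR-30b-5p, bta-miR-30b-3p, bta-miR-30c and bta-miR-30f), against 23.3% of all miRNAs tested. Control replicate 3 was the lowest of the 6 for 4 of 7 members, namely bta-miR-30a-5p, bta-miR-30c, bta-miR-30f and bta-miR-30b-3p, against 14.8% of all miRNAs tested. For no member did the differences between same-numbered libraries have the same sign in all 3 pairs of numbers.

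bta-miR-30d and bta-miR-30e-5p ran in nearly opposite orders. From the highest to the lowest level of bta-miR-30d the libraries were control replicate 1, control replicate 3, HS replicate 2, HS replicate 1, control replicate 2 and HS replicate 3. From the lowest to the highest level of bta-miR-30e-5p the order was the same except that HS replicate 2 and control replicate 3 changed places. The ratio of bta-miR-30d to bta-miR-30e-5p ranged from 2.75 to 5.77 among control libraries and from 2.54 to 3.81 among HS libraries, with overlapping groups. This pair was singled out after its values were seen among 21 pairs of members. Members with nearly the same sequence can share reads, the sources used here do not say how such reads were assigned, and the part of read assignment in these ratios was not tested.

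**Figure D4:**
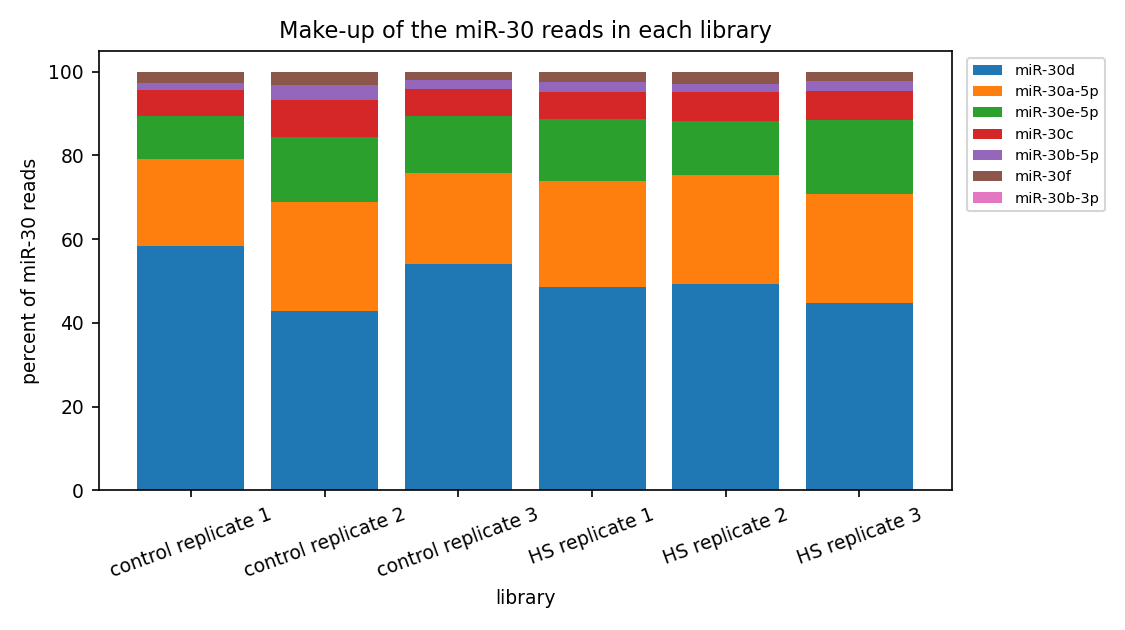
Percent of the reads of the 7 miR-30 members taken by each member in each library (stacked bars that sum to 100). bta-miR-30d takes from 42.7% in control replicate 2 to 58.3% in control replicate 1, and the groups overlap for each member.

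Within the family, reads were concentrated in few members. bta-miR-30d took 58.3%, 42.7% and 54.0% of the miR-30 reads in control libraries 1 to 3, against 48.5%, 49.2% and 44.8% under HS. For bta-miR-30a-5p the share was 23.0% ± 2.76 (control) and 25.9% ± 0.339 (HS), and for bta-miR-30e-5p 13.1% ± 2.76 and 15.1% ± 2.41 (SD over 3 libraries). These 3 members together held between 84.4% and 89.3% of the miR-30 reads. By locus, MIR30D and MIR30B together gave 54.3% ± 6.95 (control) and 49.8% ± 2.18 (HS) of the miR-30 reads. The shares of MIR30A with MIR30F were 25.5% ± 3.15 and 28.4% ± 0.517, and those of MIR30E with MIR30C 20.2% ± 3.98 and 21.8% ± 2.42. For each locus the groups overlapped. Since shares sum to a fixed total, a high share of bta-miR-30d lowers the others by construction.

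Likeness to the family total, in summed normalised CPM over the 6 libraries, was sought among 155 miRNAs with a mean of at least 100 normalised CPM. The miR-30 members were left out of these 155. The miRNAs that followed the family total most closely were bta-miR-31 (Pearson's r = 0.943), bta-miR-491 (0.942), bta-let-7a-5p (0.903), bta-miR-324 (0.889) and bta-miR-331-3p (0.885). These values describe 6 libraries, rest on selection of the highest among the 155, and share the scaling of each library. For bta-miR-31 the levels were 37159, 35033 and 32804 normalised CPM in control libraries 1 to 3, against 33469, 34543 and 30983 under HS. Like the family total in summed normalised CPM, bta-miR-31 was highest in control replicate 1 and lowest in HS replicate 3. As a share of reads the family total was lowest in HS replicate 1. None of the 5 passed the test between the groups (limma adjusted p from 0.576 to 0.839).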

How the data were processed

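Per the labels and the methods of the study, each small RNA library used 100 ng of RNA, adapters with molecular identifiers and 16 PCR cycles. The authors trimmed reads with Cutadapt 1.11, collapsed them by identifier, mapped them to the UMD3.1 genome with Bowtie2 2.2.2, counted miRBase miRNAs and scaled the counts by TMM (edgeR). The deposited signal is TMM-normalised CPM, and in each library 100% of the values equalled a whole number of reads times 1 constant (tolerance 0.01 of a read), which gave the reads and the depth. TMM assumes that most miRNAs do not change, so a shift of the whole pool would not be seen.

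Here log2(deposited value + 1), with 1 as pseudocount, was tested with limma 3.58.1 (mean-variance trend, R 4.3.3) on miRNAs that passed filterByExpr of edgeR 4.0.16 on the recovered reads, with Benjamini-Hochberg adjustment over all miRNAs tested. Fold changes are on this scale, which understates the change of low miRNAs. Intervals are limma's at 95%. Alternatives were other pseudocounts, filters, scalings and tests (DESeq2 1.42.0 among them), a block for the replicate number, and leaving out each library. The exact permutation test used scipy 1.17.1 in Python 3.11.15. The fit was tested on simulated reads.

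All 7 members were named, with the 5 miRNAs of highest Pearson correlation with the family total and comparison families by counts. The members and lists were chosen with earlier results of these data known. Gene names and neighbours came from RefSeq (ARS-UCD2.0), a different assembly from that used for mapping, so positions are left out. Mature sequences were not used here. Limits from counting, such as the floor of 3 reads, cover counting error only.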

Additional observations from a re-analysis of the deposited data

How the results depend on the processing

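The number of miR-30 members called at an adjusted p at or below 0.2 and a 1-unit log2 change in either direction was 0 under each of the 19 alternatives, including limma and edgeR with the replicate number as a block. The number of all miRNAs past these thresholds, 11, was between 8 and 12 under the 13 alternatives that kept all libraries and ran from 7 (without HS replicate 3) to 15 (9 higher and 6 lower, without control replicate 1) when a library was left out. Same-numbered libraries deviated from their group means with correlations of 0.421, -0.117 and 0.616 across miRNAs for replicates 1, 2 and 3, so the numbers were not taken to pair the samples. The libraries of replicates 1 and 3 each correlated best with their own number in the other group, while neither replicate 2 library did. With the replicate block limma called 10 miRNAs, the mean difference in the share of reads was -0.111 points by construction, and that in the log2 ratio of the bta-miR-30b arms was -0.22.

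Of 132 comparisons of a member under an alternative, 120 kept their sign, 12 changed it and none crossed an adjusted p of 0.2. With upper quartile factors, which moved the median of all miRNAs tested to -0.18, bta-miR-30a-5p was at -0.092, bta-miR-30e-5p at -0.052 and bta-miR-30b-3p at -0.15. bta-miR-30b-3p was at -0.019 in the edgeR quasi-likelihood test and at -0.013 in that test with the replicate block. When a library was left out, log2 fold changes ran from -0.32 to -0.069 for bta-miR-30d, from 0.025 to 0.19 for bta-miR-30a-5p, from -0.0087 to 0.28 for bta-miR-30e-5p, from -0.25 to 0.011 for bta-miR-30c, from -0.43 to 0.12 for bta-miR-30b-5p, from -0.31 to 0.052 for bta-miR-30f and from -0.075 to 0.11 for bta-miR-30b-3p. The cause was not tested. The share difference ran from -0.154 to -0.0853 points in those fits. A filter at a mean of 10 normalised CPM removed bta-miR-30b-3p. Depth limits that miRNA most, at 14 to 36 reads.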

Other observations

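Beside the miR-30 family, 3 other conserved families were described by their counts in the same fit, with no test of a difference between families. The let-7 family, the largest of these in this pool, held 21.6% ± 1.26 (control) and 21.6% ± 0.469 (HS) of the reads (SD over 3 libraries), led by bta-let-7a-5p. Its 9 listed members were taken by names that start with bta-let-7, the arm bta-let-7a-3p among them, and not by seed. All 9 were tested, with a median log2 fold change of -0.046. None had a limma adjusted p at or below 0.2 (7.12% of all miRNAs tested), while 2 had an unadjusted p under 0.05 (14.5% of all). The groups did not overlap for bta-let-7c and bta-let-7d (20% of all miRNAs tested did not overlap), which moved in opposite directions and are named after their values were seen. bta-let-7c stood at 10868, 9352 and 10040 normalised CPM in control libraries 1 to 3, against 8330, 8986 and 8297 under HS (log2 fold change -0.24 ± 0.0979, SE, limma adjusted p = 0.311). bta-let-7d stood at 8297, 7726 and 7671 normalised CPM in the control libraries, against 9119, 10068 and 9277 under HS (log2 fold change 0.26 ± 0.0922, SE, limma adjusted p = 0.255).

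The miR-26 family, led by bta-miR-26a, held 3.31% ± 0.405 (control) and 3.24% ± 0.156 (HS) of the reads, and its 2 tested members of 3 listed had log2 fold changes of -0.10 and 0.0099. The miR-29 family, led by bta-miR-29a, held 1.88% ± 0.28 and 2.01% ± 0.136, a share of the pool near that of miR-30. Of its 5 tested members of 6 listed, 4 had positive log2 fold changes, and their median was 0.098. No tested member of the miR-26 and miR-29 families had non-overlapping groups or an unadjusted limma p under 0.05.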
